A study of Mus musculus with 23 samples.

Results

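Adipose tissue surrounds the mammary epithelium, and 10 genes of fat cells, Adipoq, Lep, Retn, Cfd, Plin1, Cidec, Lipe, Pnpla2, Adrb3 and Fabp4, were read as a measure of fat pad content in 23 PyMT tumors. They were chosen by symbol from general knowledge of adipocytes, with earlier results of these data known. The choice was made out of 47643 genes listed and 27483 with at least 1 read, and all 10 passed the filter on low values. PyMT tumors are mammary carcinomas driven by the polyoma virus middle T oncoprotein, here in female mice on a C57BL/6 background. In the neutralization experiment, WT mice received a human IgG1 isotype control (IgG, n = 5) or the anti-IL-38 antibody e04 (anti-IL-38, n = 6) from a first tumor of 0.6 cm. In the γδ TCR experiment, from 13 weeks of age, WT mice received polyclonal Armenian hamster IgG (WT_IgG, n = 4), and IL-38 KO mice, of a C57BL/6N strain, received the same IgG (KO_IgG, n = 4) or the anti-γδ TCR antibody UC7-13D5 (KO_gdTCR, n = 4). All treatments were given once a week for 5 weeks. The labels name tumors and not animals, so p-values measure the spread between these samples. The tumors were dissociated before RNA was isolated, and how much fat each piece held is not given in the sources used here.

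White adipocytes store triglyceride in 1 large droplet, and they release it as fatty acids when catecholamines act on β-adrenergic receptors. The droplet is coated by perilipin, which restrains the lipases until it is phosphorylated. The same cells secrete adipokines, among them adiponectin, leptin, resistin in the mouse and the complement protease adipsin. PPARγ and C/EBPα are the factors best known for switching on these genes together, and the fat pad of the mammary gland is a rich source of all of them.

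Promoter sequences were looked up because many of these genes are known to be switched on together in adipocytes and, as given further on, 6 of the other 9 had a positive slope on Adipoq that passed the threshold. RefSeq on GRCm38.p6 gave 10 windows for 8 of the 10 genes, each of the 250 bases before a transcription start site, with 2 windows each for Cidec and Lipe and none for Fabp4 and Adrb3. A C/EBP motif, TTGCNNAA on either strand, was present in 3 of these 10 windows, and 9.56% of 32851 promoter windows of the same length held it. The direct repeat AGGNCANAGGNCA, bound by PPARγ with its partner, was in 0 of the 10 windows and in 0.338% of all, and TATAAA was in 0 of the 10 and in 12.4% of all. The 3 motifs do not overlap each other in these windows, and a match of letters is a description and not a binding site. The windows of Lep, Plin1 and Cidec are shown because they hold the C/EBP motif, in capitals, and that of Adipoq because Adipoq was the reference gene of the slopes below. They are chr16:23146286-23146535 on the plus strand for Adipoq, chr6:29059971-29060220 on the plus strand for Lep, chr7:79732777-79733026 on the minus strand for Plin1 and chr6:113434765-113435014 on the minus strand for Cidec, written 5′ to 3′ along the gene.
Adipoq: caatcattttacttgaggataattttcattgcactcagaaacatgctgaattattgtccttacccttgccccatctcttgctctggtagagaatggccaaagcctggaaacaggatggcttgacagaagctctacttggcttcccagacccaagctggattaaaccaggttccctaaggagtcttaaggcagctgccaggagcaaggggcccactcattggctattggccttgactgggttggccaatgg
Lep: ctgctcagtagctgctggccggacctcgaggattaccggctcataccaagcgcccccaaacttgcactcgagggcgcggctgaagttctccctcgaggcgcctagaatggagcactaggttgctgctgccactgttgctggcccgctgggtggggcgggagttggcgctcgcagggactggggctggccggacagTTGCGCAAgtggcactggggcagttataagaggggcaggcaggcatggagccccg
Plin1: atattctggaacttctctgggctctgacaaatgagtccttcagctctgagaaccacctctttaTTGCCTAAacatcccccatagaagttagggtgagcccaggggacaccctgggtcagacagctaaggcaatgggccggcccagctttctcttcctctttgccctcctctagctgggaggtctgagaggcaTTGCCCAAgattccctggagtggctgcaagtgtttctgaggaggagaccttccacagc
Cidec: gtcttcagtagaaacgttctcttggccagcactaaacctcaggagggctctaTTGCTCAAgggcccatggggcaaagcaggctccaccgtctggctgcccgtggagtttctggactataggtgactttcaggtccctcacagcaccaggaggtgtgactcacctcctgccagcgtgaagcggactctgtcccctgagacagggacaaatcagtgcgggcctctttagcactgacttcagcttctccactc
Counted from the start site, the motif began at −55 in Lep, at −187 and −58 in Plin1 and at −198 in Cidec.

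Libraries held 6273049 to 15879164 reads on genes, and levels are given as CPM, the reads of a gene scaled to equal library totals. QuantSeq gives 1 read per transcript near its 3′ end, so levels can be set beside each other without scaling to length. A count of 0 allows up to 3 reads, which is 0.189 to 0.478 CPM, for counting error only. Il1f10, the gene of IL-38, had 0 reads over all 23 libraries and could not check the genotype labels. Summed CPM of 9 luminal epithelial genes, which tumors and normal ducts share, was 1780 to 4219. KO_IgG 4 and all 4 KO_gdTCR libraries stood apart from the other 18. In these 5, processed pseudogenes took 1.31% to 1.98% of reads against 0.0943% to 0.191%, and 9 macrophage genes summed to 840 to 1453 CPM against 7458 to 19724. Among adipocyte genes outside the 10, Lpl, a lipase that macrophages also make, was at 43.4 to 164 CPM in these 5 against 967 to 2541, and Pparg, the gene of PPARγ, at 15.9 to 22.96 against 1.79 to 6.84; this pair of genes was picked with the values in view. KO_gdTCR and this difference between libraries cannot be told apart.

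**Figure D1:**
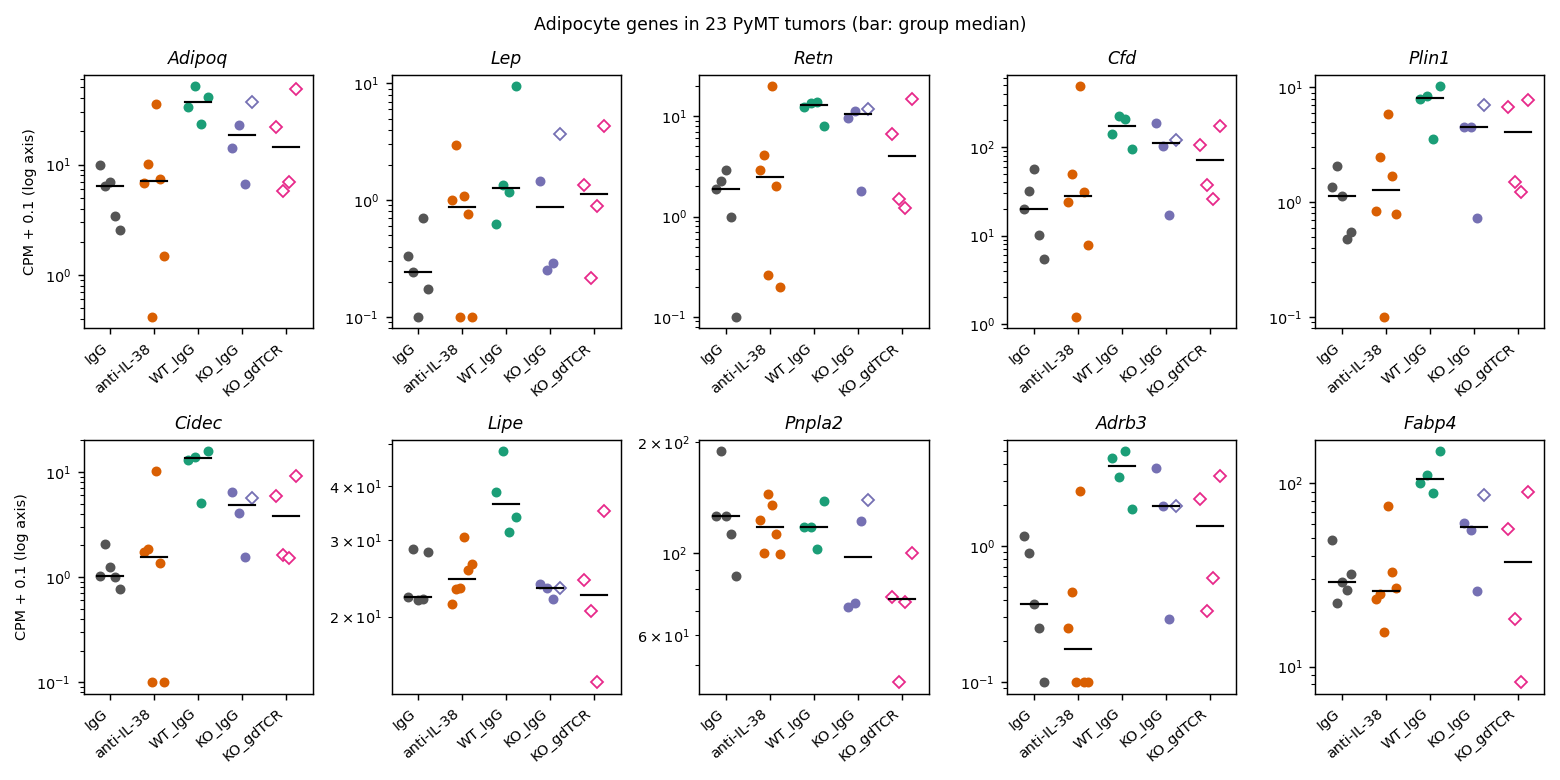
CPM plus 0.1, on a log axis, of the 10 adipocyte genes in each of the 23 tumors by group, so that 0 reads is drawn at 0.1. Points are tumors, bars are group medians and open diamonds are KO_IgG 4 and the 4 KO_gdTCR libraries; Adipoq ran from 0.317 to 51.4 CPM, while Lipe and Pnpla2 varied little.

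Among the adipokines, Adipoq, which encodes adiponectin, had its lowest group median in IgG tumors, which were at 9.86, 6.35, 6.90, 3.29 and 2.46 CPM in replicates 1 to 5. The 6 anti-IL-38 tumors had a lowest value of 0.317, a median of 6.98 and a highest of 35.2 CPM, the last in replicate 4. WT_IgG tumors were at 33.2, 51.4, 23.04 and 40.9 CPM, KO_IgG tumors at 14.1, 22.99, 6.55 and 37.0, and KO_gdTCR tumors at 21.8, 5.72, 6.85 and 48.7. WT_IgG did not overlap IgG, the 5 group medians ran from 37.1 CPM in WT_IgG over 18.5 in KO_IgG, 14.4 in KO_gdTCR and 6.98 in anti-IL-38 to 6.35 in IgG, and each group overlapped its neighbors in this order.

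Cfd, which encodes adipsin, followed a similar layout at a higher level. It was at 20.04, 31.5, 55.7, 10.1 and 5.29 CPM in IgG tumors and at 140.2, 223, 205 and 95.9 in WT_IgG tumors, with no overlap. The anti-IL-38 tumors spanned 1.11 to 488 CPM with a median of 27.6, and their highest value was the highest of all 23 tumors. In KO_IgG it was 184, 102, 16.9 and 119.9 CPM, and in KO_gdTCR 105, 36.8, 25.7 and 173, so that these groups overlapped each other throughout.

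Retn, which encodes resistin, was at 1.79, 2.17, 2.80, 0.897 and 0 CPM in IgG tumors against 12.3, 13.3, 13.7 and 7.90 in WT_IgG. In anti-IL-38 tumors it ran from 0.0986 to 19.9 CPM with a median of 2.37. KO_IgG 1, 2 and 4 held 9.59, 11.1 and 11.7 CPM and KO_IgG 3 held 1.70, and KO_gdTCR tumors held 6.49, 1.40, 1.12 and 14.8. Lep, which encodes leptin, was the rarest adipokine, with 0 reads in 1 IgG and 2 anti-IL-38 tumors and a median over the 23 of 0.667 CPM. Its highest values were 9.40 CPM in WT_IgG 4, 4.21 in KO_gdTCR 4 and 3.60 in KO_IgG 4, and the other 3 WT_IgG tumors, at 0.522, 1.25 and 1.08, overlapped the highest IgG tumor at 0.598.

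The lipid droplet genes Plin1 and Cidec had few reads in IgG tumors. Plin1, the perilipin that coats the droplet, was at 1.24, 1.95, 1.02, 0.374 and 0.447 CPM in IgG against 7.83, 8.27, 3.46 and 10.2 in WT_IgG. Cidec, whose product fuses small droplets into large ones, was at 0.932, 1.95, 1.16, 0.897 and 0.670 CPM in IgG against 12.96, 13.9, 4.99 and 15.6 in WT_IgG. For both genes WT_IgG lay wholly above IgG. KO_IgG tumors had 4.44, 4.40, 0.630 and 6.96 CPM of Plin1 and 6.42, 3.93, 1.45 and 5.57 of Cidec, and replicate 3 was lowest for both. KO_gdTCR 1 and 4 held 6.62 and 7.62 CPM of Plin1, while KO_gdTCR 2 and 3 held 1.40 and 1.12. Anti-IL-38 tumors ran from 0 to 5.78 CPM for Plin1 and from 0 to 10.2 for Cidec, again with replicate 4 highest.

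The 2 lipases behaved differently from the genes above. Lipe, which encodes hormone-sensitive lipase, was within 21.8 to 28.5 CPM in IgG, 21.3 to 30.4 in anti-IL-38 and 21.9 to 23.7 in KO_IgG. It was at 38.7, 48.0, 31.2 and 33.8 CPM in WT_IgG, above every tumor of those 3 groups, and at 24.2, 20.6, 14.03 and 34.9 in KO_gdTCR. Pnpla2, which encodes the adipose triglyceride lipase and acts before hormone-sensitive lipase, lay within 86.8 to 188 CPM in IgG, 99.2 to 144 in anti-IL-38, 103 to 139 in WT_IgG, 71.3 to 139 in KO_IgG and 44.7 to 100.2 in KO_gdTCR, and all groups overlapped. Both enzymes are used by many cell types besides adipocytes.

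Adrb3, the β3-adrenergic receptor that starts lipolysis in rodent fat, had few reads. It was at 1.09, 0.794, 0.273, 0.149 and 0 CPM in IgG against 4.35, 3.12, 4.84 and 1.76 in WT_IgG, with no overlap, and 3 of 6 anti-IL-38 tumors had 0 reads. Fabp4, the adipocyte fatty acid chaperone that endothelial cells and macrophages also express, was at 49.1, 22.2, 28.8, 26.0 and 32.0 CPM in IgG and 100.4, 110.3, 88.7 and 149 in WT_IgG. KO_IgG tumors, at 60.3, 55.4, 25.8 and 86.3 CPM, and KO_gdTCR tumors, at 56.1, 17.99, 8.13 and 89.8, covered most of the range between these groups. Anti-IL-38 tumors held 15.4 to 74.6 CPM with a median of 25.8.

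Within groups, 7 of the 10 genes were among the most variable of the transcriptome. The pooled SD of log2(CPM + 0.1) was 1.86 for Retn, 1.84 for Cfd, 1.72 for Lep, 1.59 for Cidec, 1.52 for Adrb3, 1.46 for Adipoq and 1.43 for Plin1, and each of these exceeded the SD of at least 97.2% of 16463 genes. It was 0.85 for Fabp4, 0.37 for Pnpla2 and 0.28 for Lipe, against a median of 0.396 over all genes. Genes were ranked without regard to level. Lep, Adrb3, Plin1, Cidec and Retn had 0 reads in some tumors, where counting error and the 0.1 CPM added also enter the SD. The ends of the range were anti-IL-38 3, with 4 reads of Adipoq, and WT_IgG 2, with 659, a ratio of 162 in CPM. The ratio between the same tumors was 202 for Cfd, 7.18 for Fabp4, 2.07 for Lipe and 0.814 for Pnpla2. Anti-IL-38 3 held 0 reads of Plin1, Cidec, Lep and Adrb3 and 2 of Retn, but 194 of Fabp4, 292 of Lipe and 1822 of Pnpla2.

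The first comparison asked whether fat pad content differed between the WT control tumors of the 2 experiments, WT_IgG and IgG. Adipoq, Cidec and Fabp4 rose past the threshold, and 9 of the 10 genes were higher in WT_IgG, all but Pnpla2. Adipoq was at 37.1 ± 11.999 CPM (SD, n = 4) against 5.77 ± 2.98 (SD, n = 5), with a log2 fold change of 2.67 ± 0.38 (SE) on the scale of log2(normalized count + 1) and an adjusted p of 0.0293 in limma. Cidec was at 11.9 ± 4.72 against 1.12 ± 0.494 CPM, 3.17 ± 0.41 higher on the log2 scale (limma, adjusted p = 0.0192). Fabp4 was at 112 ± 26.1 against 31.6 ± 10.4 CPM, 1.74 ± 0.22 higher (limma, adjusted p = 0.0192). Upward calls made up 0.0932% of the 16099 genes tested, and 15 genes rose in all.

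The other 7 genes did not pass the adjusted threshold. Their log2 fold changes were 3.45 for Retn (limma, adjusted p = 0.111), 3.10 for Adrb3 (0.103), 3.01 for Cfd (0.0803), 2.84 for Lep (0.141), 2.80 for Plin1 (0.0727), 0.51 for Lipe (0.168) and −0.17 for Pnpla2 (0.653). An unadjusted p under 0.05 was reached by 9 of the 10 genes in the upward direction, as by 9.49% of all genes. In 8 of the 10, all but Lep and Pnpla2, every WT_IgG tumor lay above every IgG tumor, as in 3.57% of all genes. Several of the 10 rose and fell together within groups, as the slopes below show. Counts out of the 10, here and in the comparisons below, are therefore not counts of independent genes. The median log2 fold change was 2.82 over the 10 and 0.02 over all genes tested, of which 52.0% were higher. On whole reads DESeq2 called 8 of the 10 genes, with 4.61% of all genes, and edgeR called 3, with 0.0683%, while limma with the replicate number as a block called 5, with 0.224%. The numbers were not taken as pairs. IgG 5 has no WT_IgG tumor of its number, so fold changes with the block equal those without IgG 5, as in Adipoq at 2.42.

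**Figure D2:**
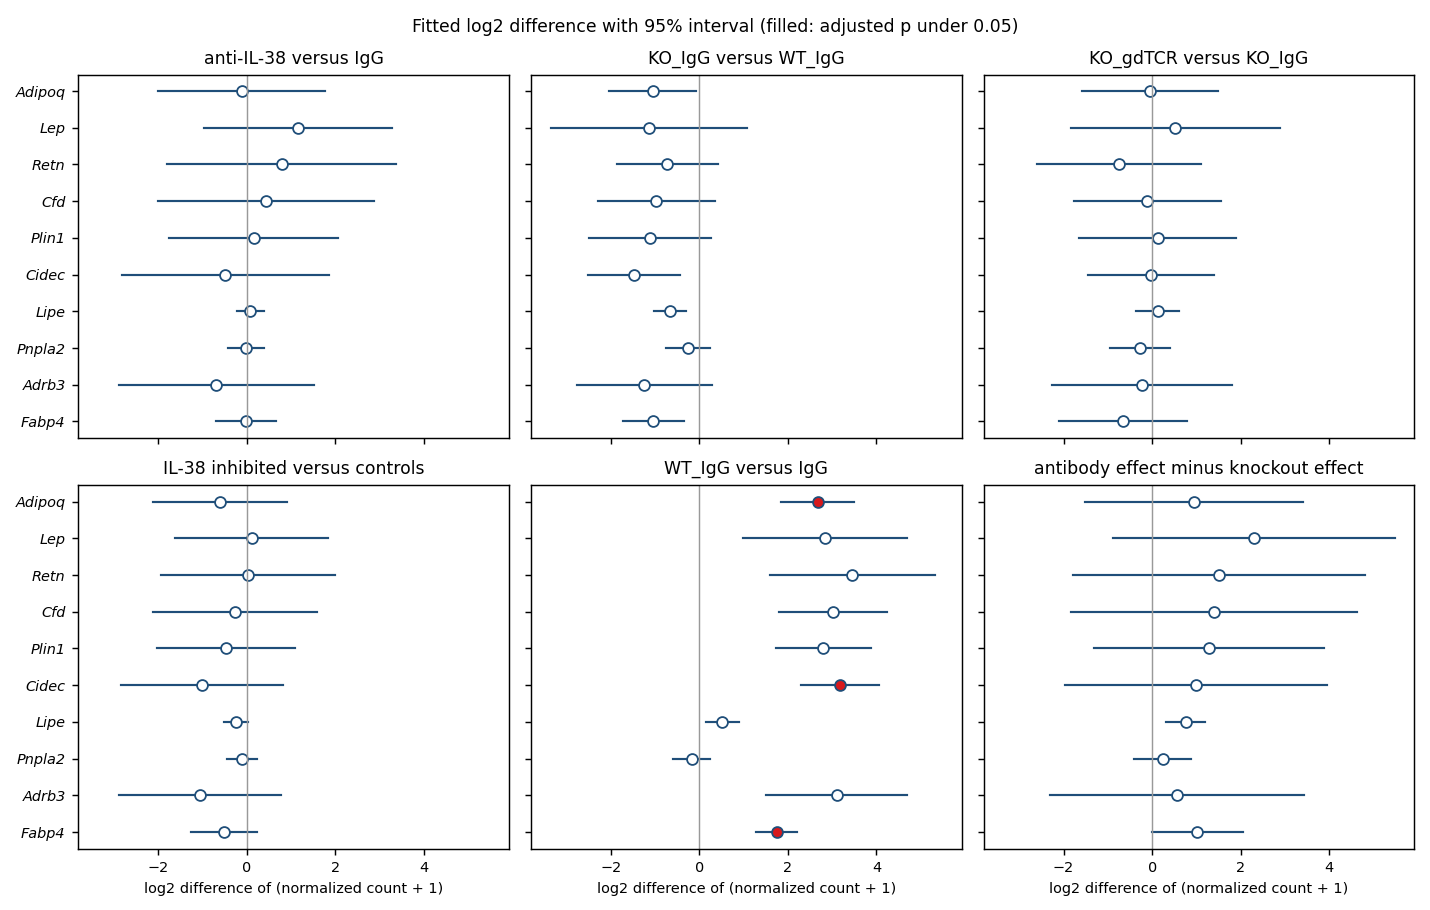
Fitted log2 difference of normalized count + 1 for the 10 adipocyte genes in each comparison, with its 95% interval; filled points have an adjusted limma p under 0.05. The filled points are Adipoq, Cidec and Fabp4 in WT_IgG versus IgG, and the intervals of Lipe and Pnpla2 are the narrowest.

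The calls of these 3 genes depended on single tumors, though their size did not. Without WT_IgG 1, 2 or 4, 0 of the 10 genes passed, with adjusted p in limma of 0.141, 0.0829 and 0.180 for Adipoq, 0.113, 0.0792 and 0.145 for Cidec, and 0.0549, 0.0792 and 0.143 for Fabp4. In each of these fits 0 of all genes tested passed, so the loss of calls was not particular to the adipocyte genes. Without WT_IgG 3, IgG 2 or IgG 4, the call of Adipoq alone was lost (0.0514, 0.0748 and 0.0677). Over the 9 fits that each left out 1 library, the log2 fold change was 2.42 to 2.89 for Adipoq, 3.0004 to 3.54 for Cidec and 1.601 to 1.90 for Fabp4. The experiment, the control antibody and the criterion for starting treatment differ between these groups along with any fat content, and cannot be told apart. In bulk RNA, fewer adipocytes and less RNA of these genes per adipocyte cannot be told apart either.

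Of 24 further adipocyte genes, 22 passed the filter and 17 were higher in WT_IgG, 3 of them past the threshold, with a median log2 fold change of 1.205. Plin4, a further perilipin, rose by 3.42, from 2.16 to 23.3 CPM (limma, adjusted p = 0.0192). Pck1, which adipocytes use to make glycerol, rose by 4.65, from 0.371 to 8.45 CPM (adjusted p = 0.0293), and Car3, an abundant carbonic anhydrase of fat, rose by 3.05, from 23.9 to 191 CPM (0.0335). Slc2a4, the insulin-responsive glucose transporter, was 2.06 higher without passing (0.120). By contrast Lpl was at −0.57, Cd36, a fatty acid carrier, at −0.56 and Pparg at 0.11, all without passing; these 4 genes were picked with the values in view.

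The other lists of fat metabolism held 0 calls. Of 17 further lipolysis and lipid droplet genes, 9 were higher and 0 passed, with a median of 0.07, and Plin5 had the largest value among the 3 with the smallest p, at 1.46 (limma, adjusted p = 0.227). Of 11 lipogenesis genes 6 were higher and 0 passed, with a median of 0.06, as in Scd2, a fatty acid desaturase, at −0.78 (0.215). Of 10 brown and beige adipocyte genes that could be tested, 9 were higher and 0 passed (median 0.61), with Kcnk3 at 1.49 (0.231). Of 9 adipokine receptors and alternative complement genes 5 were higher (median 0.09), and Cfb, the substrate of adipsin, was at 0.66 (0.121).

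Markers of other cell types also differed between the control groups. All 9 macrophage genes were lower in WT_IgG, with a median of −0.48, 6 of them at an unadjusted p under 0.05 and 0 past the adjusted one, and their summed CPM was 8362 to 13460 against 11740 to 19724 in IgG. Of 7 basal epithelial genes 6 were higher (median 1.08, 4 at an unadjusted p under 0.05), with summed CPM of 351 to 762 against 105 to 374. Of 12 adipocyte progenitor genes 10 were higher (median 0.60), among them Pi16 at 1.30 (limma, adjusted p = 0.111) and Pdgfra at 1.11 (0.176). Of 10 endothelial genes 3 were higher, with a median of −0.08, and so were 7 of 9 luminal epithelial genes (0.13), 1 of 9 skeletal muscle genes (−0.24), 4 of 6 nerve and Schwann cell genes (0.48) and all 3 testable B cell and lymph node genes (0.14), with 0 calls in these 5 lists. With the macrophage list as a term in the fit, 0 of the 10 adipocyte genes passed, the log2 fold changes being 3.39 for Adipoq, 3.50 for Cidec and 1.83 for Fabp4 (limma, adjusted p = 0.515, 0.562 and 0.562). In this fit 0 of all 16099 genes passed, and 1120 had an unadjusted p under 0.05 against 2994 without the term. The part of these cell types in the difference was not tested further.

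**Figure D3:**
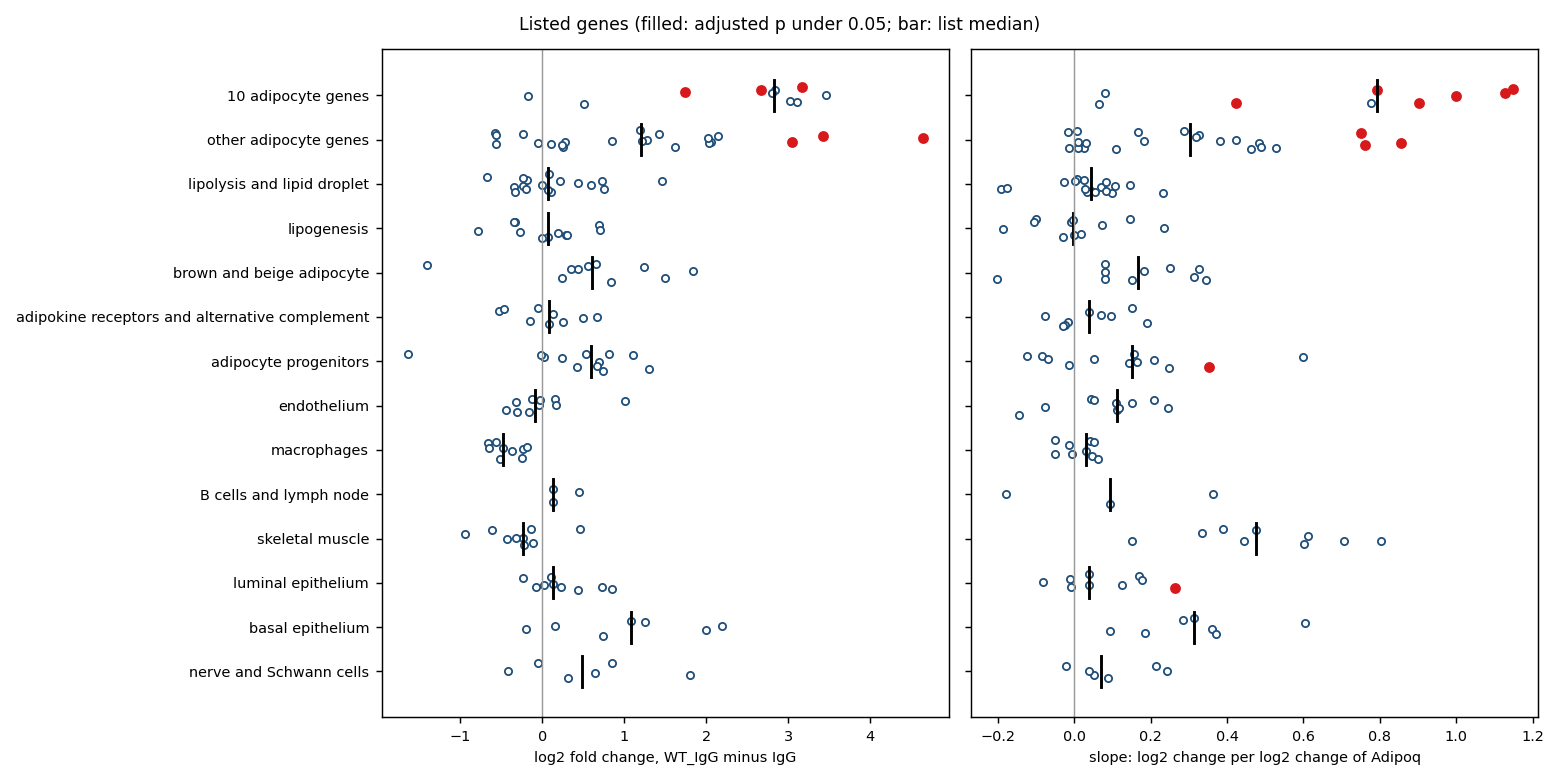
Log2 fold change of WT_IgG minus IgG on the left and slope on Adipoq within groups on the right, for each gene of the 10 adipocyte genes and 13 further lists; Adipoq itself has no slope. Points are genes, filled points have an adjusted limma p under 0.05 and bars are list medians, which are highest for the 10 genes in both panels, at 2.82 and 0.79.

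The next comparisons asked whether interfering with IL-38 moved the fat signal. They share groups with each other and with the comparison above, so their values are given side by side. Between anti-IL-38 and IgG tumors, limma called 0 of the 10 genes, the unadjusted p was under 0.05 for 0 of them, and calls made up 0.0% of 16002 genes, with 10.5% at an unadjusted p under 0.05. edgeR and DESeq2 on whole reads also called 0 of the 10, with 0 of all genes in edgeR and 59 higher and 16 lower in DESeq2. The log2 fold change was −0.11 for Adipoq, with a 95% interval from −1.999 to 1.77, and −0.48 for Cidec, 0.16 for Plin1, 0.43 for Cfd, 0.78 for Retn and 1.16 for Lep. Such wide intervals cover large differences in either direction. They were narrower for Fabp4, at −0.02 from −0.70 to 0.65, for Lipe, at 0.08 from −0.22 to 0.38, and for Pnpla2, at −0.02 from −0.42 to 0.38. The anti-IL-38 group held both anti-IL-38 3, the tumor with least Adipoq, and anti-IL-38 4, with the most Cfd and Retn of all 23. The sign for Adipoq was not fixed, since it was −0.70 to 0.57 when each library was left out in turn and 0.86 in edgeR. Of 22 further adipocyte genes 14 were higher (median 0.20). All 9 luminal epithelial genes and 10 of 12 adipocyte progenitor genes were higher, with medians of 0.64 and 0.50. Of 9 macrophage genes 7 were lower (median −0.22). Each of these lists had 2 genes at an unadjusted p under 0.05 and 0 past the adjusted one.

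Between KO_IgG and WT_IgG tumors, all 10 genes were lower in the knockout and 0 passed, while 1 gene of 16563 passed, which is 0.00604%. Of all genes, 49.4% were lower. The median log2 fold change was −1.05 against 0.01 over all genes, and 4 of the 10 had an unadjusted p under 0.05, as did 5.4% of genes in the downward direction. They were Lipe, at 22.99 ± 0.756 against 37.9 ± 7.39 CPM and −0.68 ± 0.16 (limma, adjusted p = 0.210), Fabp4, at −1.05 ± 0.31 (0.270), Cidec, at −1.48 ± 0.48 (0.290), and Adipoq, at −1.06 ± 0.45 (0.385). Of the 10, Lipe alone had every KO_IgG tumor below every WT_IgG tumor, as in 3.41% of genes, and DESeq2 called it, at −0.70 with an adjusted p of 0.0233, together with 1.8% of all genes, while edgeR called 0 of the 10 and 0 of all genes. Without KO_IgG 4, the library that stands apart, the values were −0.69 for Lipe, −1.30 for Fabp4, −1.67 for Cidec and −1.45 for Adipoq, and 0 of the 10 passed (limma, adjusted p = 0.131, 0.0930, 0.181 and 0.141). In that fit 5 genes passed upward and 2 downward of 16225.

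Around these genes, 17 of 23 further adipocyte genes were lower in the knockout, with a median of −0.40 and 0 past the threshold, such as Pck1 at −1.52 (limma, adjusted p = 0.276). All 9 macrophage genes were lower as well, with a median of −0.67 and summed CPM of 7458 to 10683 in KO_IgG 1 to 3 and 1361 in KO_IgG 4, against 8362 to 13460 in WT_IgG. All 9 skeletal muscle genes were higher in the knockout, with a median of 2.26, 2 of them, Ckm at 3.46 and Pvalb at 3.01, at an unadjusted p under 0.05 and 0 past the adjusted one (0.255 and 0.342 in limma), and their summed CPM was 112 to 514 in KO_IgG 1 to 3 and 31.6 in KO_IgG 4, against 17.7 to 93.99 in WT_IgG. Of 7 basal epithelial genes 6 were lower, with a median of −0.35, 1 at an unadjusted p under 0.05 and 0 calls. Of 12 adipocyte progenitor genes 9 were higher, with a median of 0.24, 2 at an unadjusted p under 0.05 and 0 calls. Of 11 lipogenesis genes 7 were higher, with Srebf1, a regulator of fatty acid synthesis, at 1.11, Scd2 at 0.88 and Elovl6, a fatty acid elongase, at 0.70 (adjusted p = 0.270, 0.255 and 0.231). The part of these cell types in the adipocyte values was not tested.

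Between KO_gdTCR and KO_IgG tumors, limma called 0 of the 10 genes and gave 0 of them an unadjusted p under 0.05, although 21.7% of 16481 genes had one, and 0.0% of genes passed the adjusted threshold. edgeR and DESeq2 also called 0 of the 10, with 0 of all genes in edgeR and 419 higher and 605 lower in DESeq2. Without KO_IgG 4, the KO_IgG library that stands apart, limma called 1557 genes higher and 800 lower of 16480, and 0 of the 10. Lep, Plin1 and Lipe were higher, at 0.52, 0.13 and 0.13, and the other 7 were lower, as were 48.1% of all genes, among them Retn at −0.75, Fabp4 at −0.65 and Adipoq at −0.05 with a 95% interval from −1.58 to 1.48. KO_gdTCR 1 and 4 were above KO_gdTCR 2 and 3 for all 10 genes, and the higher pair reached the level of WT_IgG in Adipoq only with replicate 4. The 5 libraries that stand apart hold all of KO_gdTCR and 1 of KO_IgG, and 8 of 9 macrophage genes were lower in KO_gdTCR, with a median of −1.25 and 7 at an unadjusted p under 0.05. All 9 skeletal muscle genes and all 7 basal epithelial genes were higher, with medians of 1.34 and 0.56, 1 of each list at an unadjusted p under 0.05 and 0 past the adjusted one. So were all 9 luminal epithelial genes, with a median of 0.31, 2 of them at an unadjusted p under 0.05 and 0 past the adjusted one. Of the further adipocyte genes, Lpl was at −3.01, Pparg at 2.15 and Adig, a small adipocyte protein, at 1.07 (limma, adjusted p = 0.0657, 0.0735 and 0.0657), which moved in opposite directions. A blockade effect on these values and the difference between libraries cannot be told apart.

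When the 10 anti-IL-38 and KO_IgG tumors were set against the 9 IgG and WT_IgG tumors, in a fit that took no account of the experiment, 0 of the 10 genes passed in limma, edgeR or DESeq2. In limma, 0 of the 10 had an unadjusted p under 0.05 against 10.5% of 16352 genes, and 0.0% of genes passed the adjusted threshold. Of all genes, edgeR called 1 higher and 0 lower, and DESeq2 63 higher and 7 lower. Of the 10 genes 8 were lower, as were 49.4% of all genes, with Adrb3 at −1.05, Cidec at −1.02, Adipoq at −0.61, Fabp4 at −0.51 and Lipe at −0.25 (95% interval from −0.52 to 0.03). The controls of the 2 experiments differ in these genes, as given above, and with the experiment as a term limma also called 0 of the 10, with −0.92 for Adrb3, −0.90 for Cidec, −0.51 for Adipoq, −0.46 for Fabp4 and −0.24 for Lipe, while 2415 of all genes had an unadjusted p under 0.05 against 1725 without it. The effect of the antibody minus that of the knockout was above 0 for all 10 genes, as for 52.3% of all genes, and 0 of the 10 passed, against 0.00612% of genes, with 2 at an unadjusted p under 0.05, as were 7.67% of genes. The difference was 0.76 ± 0.21 for Lipe (limma interaction term, adjusted p = 0.525) and 1.02 ± 0.49 for Fabp4 (0.650). A difference between the effects of antibody and knockout was not detectable with this number of tumors.

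To describe how the genes moved with each other inside the groups, each gene was regressed on Adipoq over all 23 libraries with group as a term, on log2(CPM + 0.1). The reads of the 2 deposited tables were put on 1 scale for this by the total of each library. A slope of 1 means that a gene scaled in proportion to Adipoq, as far as its levels lie well above the 0.1 CPM added. They did not in anti-IL-38 3, which had 0 reads of Plin1, Cidec, Lep and Adrb3. Of the other 9 genes, 6 passed an adjusted p of 0.05 with a positive slope, as did 0.182% of 16462 genes. Cfd, at 1.15 ± 0.11 (SE; limma, adjusted p = 5.16e-06), Retn, at 1.13 ± 0.13 (4.84e-05), Cidec, at 1.00 ± 0.10 (8.05e-06), and Plin1, at 0.90 ± 0.09 (8.05e-06), had slopes near 1. Over 32 alternatives these slopes ran from 0.85 to 1.26 for Cfd, 0.98 to 1.34 for Retn, 0.77 to 1.08 for Cidec and 0.72 to 1.05 for Plin1. Adrb3 had 0.79 ± 0.16 (0.0355) and Fabp4 0.42 ± 0.09 (0.0355), so Fabp4 changed less than in proportion. Lep, at 0.78 ± 0.20, did not pass (0.110).

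The lipases had smaller slopes on Adipoq. Over the 23 libraries Lipe had a slope of 0.08, with a 95% interval from −0.01 to 0.17 (limma, adjusted p = 0.524), and Pnpla2 of 0.07, from −0.05 to 0.18 (0.715), and both intervals lie below those of Cfd, Retn, Cidec and Plin1, the lowest bound of which is 0.71. In the 12 libraries of the γδ TCR experiment the slopes were 0.24 ± 0.08 for Lipe and 0.19 ± 0.10 for Pnpla2 (SE; limma, adjusted p = 0.834 and 0.918), and in the 11 of the neutralization experiment 0.022 ± 0.045 and 0.019 ± 0.056 (0.923 and 0.950). Without anti-IL-38 3, the tumor with least Adipoq, Pnpla2 had 0.16 ± 0.06 (0.403) over all other libraries. The slopes of the 2 experiments were not tested against each other. The median slope was 0.79 over the 9 genes and 0.02 over all genes, of which 60.5% were above 0. With slopes this small, ratios of Lipe and Pnpla2 to Adipoq are bound to be higher in tumors low in Adipoq, so they add nothing to the slopes. Pnpla2 was at 456 times Adipoq in anti-IL-38 3, which had 4 reads of Adipoq, with a median of 9.93 times over the 23. Cfd to Adipoq stayed within 2.03 to 13.9 and had a median of 4.32.

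**Figure D4:**
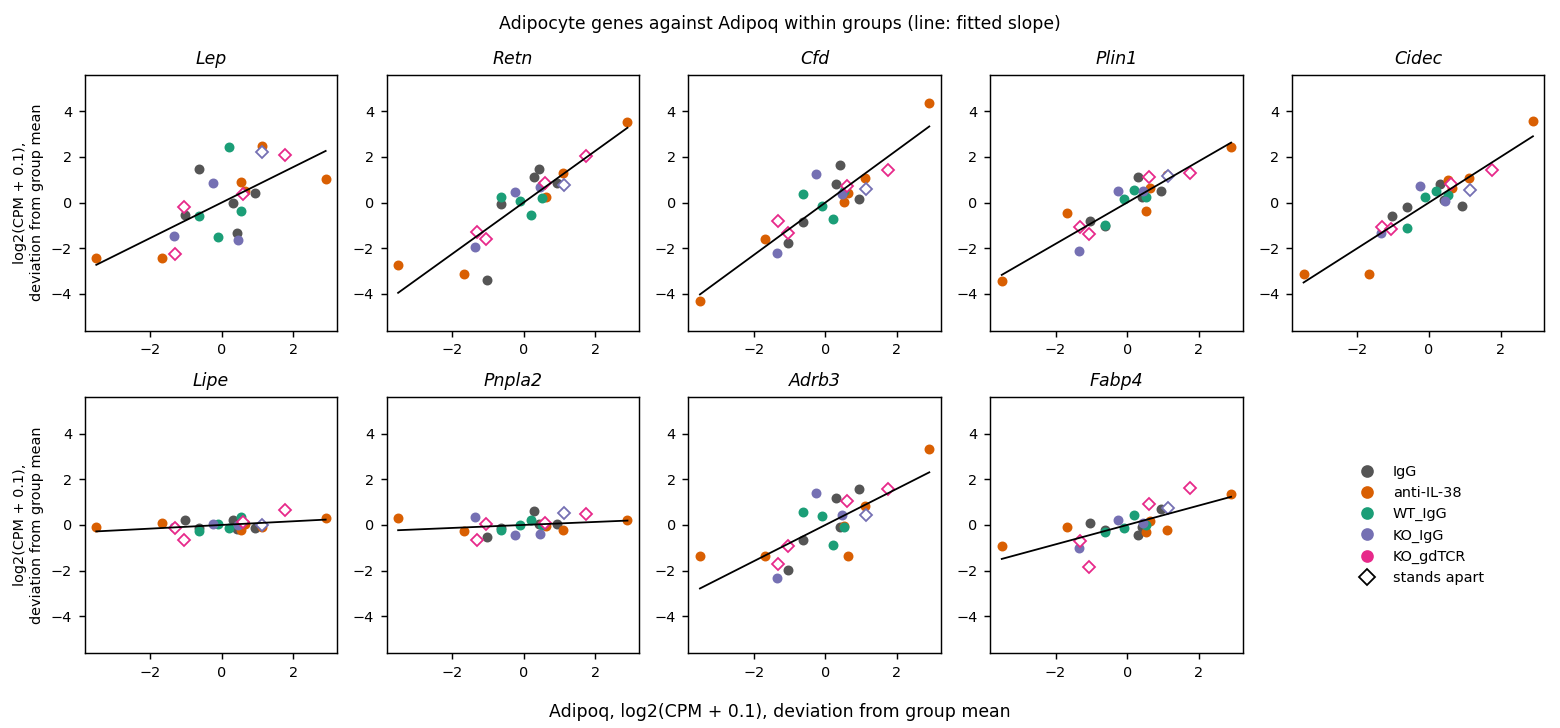
Deviation of log2(CPM + 0.1) from the group mean for 9 adipocyte genes, each against the deviation of Adipoq; lines are fitted slopes. Points are the 23 tumors, colored by group, with open diamonds for KO_IgG 4 and the 4 KO_gdTCR libraries; Cfd, Retn, Cidec and Plin1 rise along the line from end to end, and the lines of Lipe and Pnpla2 have slopes of 0.08 and 0.07.

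Cfd, Retn, Cidec and Plin1 passed in all 23 fits that left out 1 library, and in the 11 libraries of the neutralization experiment alone, where 0.0749% of genes passed, with slopes of 1.26, 1.15, 1.05 and 0.85 (limma, adjusted p = 0.000473, 0.0470, 0.0180 and 0.0400). In the 12 libraries of the γδ TCR experiment alone, Plin1 at 1.05 and Fabp4 at 0.84 passed (0.0420 and 0.0420), with 0.0361% of genes, while Retn at 1.06, Cfd at 0.85 and Cidec at 0.85 did not (0.0540, 0.471 and 0.108). Without the 5 libraries that stand apart, Cfd, Retn, Cidec and Plin1 passed, with 0.123% of genes, at 1.24, 1.14, 1.05 and 0.89, and Fabp4 at 0.29 (0.0894) and Adrb3 at 0.76 (0.115) did not. The calls of Adrb3 and Fabp4 also rested on single libraries. Adrb3 lost its call without anti-IL-38 4 or 6, WT_IgG 1, KO_IgG 3 or KO_gdTCR 2, 3 or 4, and Fabp4 without anti-IL-38 3 or 4, WT_IgG 1, KO_IgG 3 or 4 or KO_gdTCR 4, with adjusted p of up to 0.244 and 0.166.

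Among genes outside the 10, Car3 had the smallest p of all, with a slope of 0.85 ± 0.07 (limma, adjusted p = 2.21e-07), and Plin4 at 0.76 and Pck1 at 0.75 also passed (7.91e-05 and 0.0305). They were the 3 of 22 further adipocyte genes that passed, 20 of which had a slope above 0 (median 0.30). Others with the smallest p were Retnla, a resistin-like gene of fat and of alternatively activated macrophages, at 0.64 (0.000192), Lyve1, a hyaluronan receptor of lymphatic endothelium and some macrophages, at 0.61 (0.00211), Dpt, which encodes the matrix protein dermatopontin, at 0.53 (0.0131), and Lama2, a laminin chain of basement membranes, at 0.34 (0.0241). Clec10a, a lectin of macrophages and dendritic cells, had 0.35 (0.0221), Krt18, a luminal keratin, 0.26 (0.0305), Serpina3n, a protease inhibitor, 0.49 (0.0344), Scn7a, a sodium channel, 0.33 (0.0352), and C6, of the terminal complement complex, 0.51 (0.0352). Gm13594, B3galt2 and Kbtbd11 had 0.74, 0.83 and 0.42 (0.00680, 0.0142 and 0.0344). A negative slope passed in 5 genes, which is 0.0304% of those tested. They were Abcg2, a drug and riboflavin transporter of the mammary gland, at −0.22 (0.00332), Mia, at −0.36 (0.00680), Pcyox1l, at −0.20 (0.0305), Pcnx3, at −0.17 (0.0419), and Fndc5, at −0.38 (0.0499).

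Of the cell type lists, the 9 macrophage genes had a median slope of 0.03, with 5 above 0 and 0 past the threshold, close to the median of all genes. All 9 skeletal muscle genes and all 7 basal epithelial genes had slopes above 0, with medians of 0.48 and 0.31, and 0 passed in either list. Of 12 adipocyte progenitor genes 8 were above 0 (median 0.15), and Pi16 at 0.35 passed (limma, adjusted p = 0.0499) while Wnt2 at 0.60 and Cd34 at 0.21 did not (0.0851 and 0.0572). Lipolysis and lipogenesis genes had medians of 0.04 and −0.0029 with 0 calls, and endothelial genes of 0.11 with 0 calls. Muscle lies near the mammary fat pad and basal cells surround the ducts, and how much of them each dissociated piece held was not tested.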

How the data were processed

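RNA of 23 dissociated PyMT tumors in 5 groups was sequenced with the stranded QuantSeq 3′ mRNA-seq FWD kit and analyzed by the authors with the QuantSeq pipeline of BlueBee Genomics. The submitters' processing notes name STAR, HTSeq, DESeq2 and GRCm39, without versions. Deposited were normalized counts (unit: signal), read counts that the authors divided by 1 size factor per library, separately in a table of 19 libraries and a table of 8. The 4 KO_IgG libraries are in both with the same reads. Dividing by the value of 1 read gave whole reads for 100% of values within 0.0001%, except that in WT_IgG 1 this value, 0.996, lies too near 1 to tell. Such reads gave CPM and the tests on counts. Names came from GENCODE M21, which matched 47224 of 47643 gene IDs, and promoters from RefSeq on GRCm38.p6; as these builds are not that of the files, gene coordinates are not given. Sample pairs within groups were no duplicates (chi-square per degree of freedom 17.1 to 138).

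Tests ran in limma (version 3.58.1, R 4.3.3; trended eBayes, two-sided, Benjamini-Hochberg over all genes, threshold 0.05) on log2 of the normalized count plus 1, for genes whose mean was 5 or more and with the libraries of each comparison alone. The interaction used 19 libraries. Fold changes on this scale understate those of rare genes. Slopes on Adipoq used log2(CPM + 0.1), genes with a mean of at least 5 reads and group as a term. Scripts were tested on simulated data. The 10 genes and the 13 further lists, of 143 genes, were chosen with earlier results of these data known. Named are the 10 genes, per comparison up to 3 genes of each list with the smallest p, and the 15 positive and 5 negative slopes with the smallest p; others are stated to be chosen after their values were seen.

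Alternatives were pseudocounts of 0.5 and 5 (0.5 CPM for slopes), no filter or a mean of 20, TMM or quantile normalization, edgeR 4.0.16 and DESeq2 1.42.0 on whole reads, terms for experiment or for replicate number (block), no group term, each experiment alone and leaving out each library. The macrophage list as a term and leaving out the libraries that stand apart were added after seeing the data. Same-numbered libraries of compared groups did not deviate together (correlations of −0.17 to 0.08 over 17 pairs), so the numbers were not taken as pairs. Whether reads carried molecular identifiers is not given in the sources used here, so limits for 0 reads cover counting error only.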

Additional observations from a re-analysis of the deposited data

Results flagged for a closer look

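Dixon's test at the 95% level marked the lowest tumor as an outlier in 2 of 50 sets of 1 adipocyte gene in 1 group. Chance alone marks about 1 set in 20. The test was run on the logarithmic scale of the slopes above. It was not run on the CPM printed below, for which these marks need not hold. Cidec in WT_IgG had its lowest value in WT_IgG 3, at 4.99 CPM against 12.96, 13.9 and 15.6. The same tumor had the lowest Adipoq, Plin1 and Fabp4 of its group but the highest Retn and Adrb3. Retn in KO_IgG had its lowest value in KO_IgG 3, at 1.70 CPM against 9.59, 11.1 and 11.7, and this tumor also had the lowest Adipoq, Cfd, Plin1, Cidec, Adrb3 and Fabp4 of its group. No effect under the same contrast differed between the experiments past the adjusted threshold for any of the 10 genes.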

How the results depend on the processing

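The counts of called genes among the 10 were within 1.5 times the reported count in 153 of 161 alternatives, and single values kept their direction and side of the threshold in 1417 of 1564. Most of the reported counts were 0 and were taken as kept where they stayed 0. Where the reported count was above 0, it was kept in 13 of 19 alternatives for WT_IgG versus IgG and in 31 of 32 for slopes. In WT_IgG versus IgG, 3 genes passed, and DESeq2 called 8 (with 4.61% of all genes), edgeR 3 (0.0683%) and the replicate block 5 (0.224%). The macrophage list as a term gave 0, with 0 of all genes and Pnpla2 then at 0.012. Leaving out 1 library gave 0 to 4 of the 10, with 0 of all genes called without WT_IgG 1, 2 or 4. In KO_IgG versus WT_IgG, where 0 passed, DESeq2 called 1, Lipe. For slopes, 6 passed, with 4 to 6 on leaving out 1 library. In the 12 libraries of the γδ TCR experiment 2 passed, and in the 11 of the neutralization experiment 4 did. Adrb3 fell short with a pseudocount of 0.5 CPM (0.51, limma, adjusted p = 0.0676) and Fabp4 with TMM (0.41, 0.0538), and Pnpla2 was −0.000564 without the 5 libraries that stand apart.

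Signs changed in genes that did not pass. For anti-IL-38 versus IgG, edgeR gave 0.86 for Adipoq, 1.17 for Cidec, 0.14 for Adrb3 and 0.11 for Fabp4, DESeq2 0.88, 1.19, 0.18 and 0.12, and a pseudocount of 5 gave 0.057 for Cidec. The replicate block gave 0.23 for Adipoq, 0.032 for Pnpla2, 0.19 for Cidec and 0.00268 for Fabp4 there, and the macrophage list as a term 0.23, 0.039 and 0.30 for Adipoq, Pnpla2 and Fabp4. For KO_gdTCR versus KO_IgG, quantile normalization gave −0.10 for Plin1 and −0.15 for Lep, the macrophage list as a term −1.07 and −0.84, edgeR 0.17 for Adipoq and 0.18 for Cidec, and DESeq2 0.17 and 0.20. For IL-38 inhibited versus controls, Retn was −0.011 with a pseudocount of 5, −0.045 with quantile normalization and −0.74 with the macrophage list as a term, Lep −0.14 with quantile normalization, −0.37 in edgeR, −0.37 in DESeq2 and −0.61 with that term, and Cfd 0.30 in edgeR and 0.30 in DESeq2. The cause was not tested.

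Leaving out 1 library in turn also changed signs. For anti-IL-38 versus IgG, values ran from −0.70 to 0.57 for Adipoq, −0.12 to 1.43 for Retn, −0.15 to 0.13 for Pnpla2, −1.23 to 0.19 for Cidec, −0.35 to 0.90 for Plin1, −0.45 to 1.26 for Cfd and −0.30 to 0.13 for Fabp4. For KO_gdTCR versus KO_IgG they ran from −0.059 to 0.30 for Lipe, −0.61 to 0.41 for Adipoq, −0.47 to 0.36 for Cidec, −0.57 to 0.54 for Plin1, −0.98 to 0.36 for Adrb3, −0.14 to 1.29 for Lep and −0.84 to 0.28 for Cfd. For IL-38 inhibited versus controls they ran from −0.62 to 0.47 for Retn, −0.76 to 0.0069 for Plin1, −0.24 to 0.61 for Lep and −0.68 to 0.27 for Cfd, and the difference between the effects of antibody and knockout from −0.23 to 1.02 for Adrb3. The replicate block changed no other count of calls by over 1.5 times. With few reads of Lep, Adrb3, Plin1 and Retn, depth limits what can be seen of these genes in the tumors with least fat signal.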
